A study of Zea mays with 48 samples.

Results

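The 6 maize genes described here belong to families that act in the transport of the plant hormone auxin. They encode the efflux carriers PIN1a (GRMZM2G098643), PIN1b (GRMZM2G074267), PIN1c (GRMZM2G149184), PIN1d (GRMZM2G171702) and PIN5c (GRMZM2G040911) and the protein kinase bif2 (GRMZM2G171822). They were chosen by identifier, without a criterion on their values but with earlier results of these data known, from the 39656 gene models of the deposited table. A table of gene names made for the current B73 assembly held 4 of the 6 identifiers, and the names PIN1b and PIN1c came with the list of identifiers.

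The libraries came from F1 kernels of the inbred lines B73 and Mo17, crossed in both directions. In the BM cross B73 was the seed parent and Mo17 gave the pollen, and in the MB cross the roles were exchanged. In each cross there were 8 sample kinds: embryos isolated with a laser from sections (laser capture microdissection, LCM) 3 or 5 days after pollination (DAP), embryos taken by hand at 5, 7, 9, 11 and 13 DAP, and endosperm, the nutritive tissue around the embryo, at 5 DAP. There were 16 groups of 3 libraries, which the labels call biological replicates, and each library was made from pooled tissue of at least 3 ears, many embryos together, so that a value is an average over a tissue and over kernels. The way in which endosperm was collected is not given in the sources used here.

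Auxin moves from cell to cell, and PIN carriers with a long central loop sit in the plasma membrane on one side of the cell, so that their position sets the direction of flow. In Arabidopsis embryos this flow marks out the apical-basal axis and the cotyledons. Carriers of the PIN5 type lack the long loop, and in Arabidopsis PIN5 lies in the endoplasmic reticulum and acts on auxin inside the cell. The kinase encoded by bif2 (barren inflorescence2) is the maize relative of Arabidopsis PINOID, which places PIN proteins within the cell by phosphorylating them, and maize plants without it form few branches and flowers.

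Library totals ran from 7130090 to 21698127 counts. Among the LCM libraries at 3 DAP, BM replicate 3 and MB replicate 1 stood apart from their own group, and tests at 3 DAP are given with and without both. Their mean correlation across genes with the other libraries of the group was 0.914 and 0.927, against 0.933 to 0.957 for the other 3 DAP LCM libraries and 0.978 to 0.983 at 5 DAP. Of the embryo markers, the embryo regulator lec1 was detected in every embryo library, at 354 to 823 CPM in LCM embryos at 3 DAP and 40.0 to 87.9 CPM in manual embryos at 5 DAP, and was at 0 to 0.523 CPM in endosperm. Another, the meristem gene kn1, was at 0 in some LCM libraries and at 0.621 to 83.8 CPM in manual embryos at 5 DAP. The homeobox gene wox2a did not mark the embryo here, since it lay between 25.3 and 41.8 CPM in endosperm, and the summed embryo markers given below include all 3 genes. Of the 9 endosperm markers, fie1 and gz27 were at 287 to 421 and at 567 to 1710 CPM in the endosperm libraries, although gz27 also reached 260 to 917 CPM in embryos of 11 DAP. Others were lower in endosperm than in manual embryos of 5 DAP by mean CPM, esr1 at 38.7 against 1690, esr2 at 68.8 against 2431, and also esr3, betl3 and ebe2, so the list did not mark endosperm as a whole. In bulk tissue, fewer cells of a type and less RNA per cell cannot be told apart, and this touches every result that follows.

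By mean FPKM, PIN1a was the most abundant of the 6 genes in manual embryos at every age, and PIN1b in LCM embryos of 3 and 5 DAP. Levels are compared between genes in the authors' FPKM (fragments scaled by transcript length and library depth). The order of the sample kinds within a gene is also given in FPKM. Other comparisons within a gene are in CPM (the count scaled to a fixed library total) unless FPKM is named. In manual embryos at 5 DAP the mean FPKM was 32.5 ± 6.07 (SD, n = 6) for PIN1a, 13.6 ± 5.71 for PIN1d and 10.8 ± 1.28 for PIN1b. At the same age bif2 was at 1.88 ± 0.945, PIN1c at 0.165 ± 0.0993 and PIN5c at 0.00751 ± 0.0184 FPKM.

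The order of the 8 sample kinds differed from gene to gene. PIN1a had its highest mean in manual embryos at 5 DAP, followed by 20.9 ± 4.23 FPKM at 7 DAP and 19.1 ± 5.72 FPKM in LCM embryos at 5 DAP. It stood at 9.55 FPKM in LCM embryos at 3 DAP, at 9.14, 8.58 and 7.34 FPKM at 9, 11 and 13 DAP, and at 0.925 ± 0.194 FPKM in endosperm. Only the step from 13 DAP embryos to endosperm separated neighbours in this order without overlap between their libraries. PIN1b was highest in LCM embryos at 5 DAP, with 36.6 ± 11.1 FPKM, a level that did not overlap the next kind, LCM embryos at 3 DAP with 11.5 ± 5.82. Then came manual embryos with 10.8, 9.11, 5.02, 5.02 and 4.90 FPKM from 5 to 13 DAP, and endosperm with 0.0168 FPKM, again without overlap. PIN1d had 3 kinds at nearly the same height, LCM embryos at 5 DAP (14.4 FPKM) and manual embryos at 7 and 5 DAP (13.8 and 13.6 FPKM). Its libraries overlapped between all neighbours in the order, which went on through 7.00, 5.95 and 4.97 FPKM at 9, 11 and 13 DAP. Last came LCM embryos at 3 DAP (1.79 FPKM) and endosperm (0.583 FPKM). In CPM PIN1d was highest in manual embryos at 7 DAP (mean 32.0), then at 5 DAP (31.5) and in LCM embryos at 5 DAP (31.0).

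PIN5c was a late gene in manual embryos, with its highest mean at 11 DAP (1.68 ± 0.511 FPKM), then 1.12 at 9 DAP, 0.959 at 13 DAP and 0.458 at 7 DAP. All neighbours in the order of PIN5c overlapped, down to 0.419 FPKM in endosperm and 0.195, 0.107 and 0.00751 FPKM in the young LCM and manual embryos. In CPM the means of PIN5c at 7 DAP and in endosperm lay further apart, at 1.11 and 0.569. The mean of bif2 was between 1.88 and 2.22 FPKM in 4 kinds, LCM embryos at 3 and 5 DAP, endosperm and manual embryos at 5 DAP. It was 1.18, 0.327, 0.211 and 0.104 FPKM at 7, 9, 11 and 13 DAP, with overlap between all neighbours. In CPM the 4 kinds were not alike. The mean of bif2 was 10.1 and 11.5 CPM in LCM embryos at 3 and 5 DAP, 3.26 in manual embryos at 5 DAP and 3.02 in endosperm.

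PIN1c was close to silent in all 8 kinds. It had 0 to 8 reads in a library, and its summed counts over 6 libraries were 26 in manual embryos at 5 DAP, 9 in LCM embryos at 3 DAP, 6 at 7 DAP and 3 or fewer in each of the other kinds. In endosperm 0 reads in 6 libraries allow a level of up to 0.0469 CPM (3 counts over the group, counting error only). PIN1c passed the filter on low counts in no comparison, so no change of PIN1c was tested. PIN1a, PIN1b, PIN1c and PIN1d are related genes, and how reads that match several gene models were counted is not given in the sources used here, nor whether strand was used, so a member's reads and those of an overlapping, antisense or near-identical transcript cannot be told apart.

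**Figure D1:**
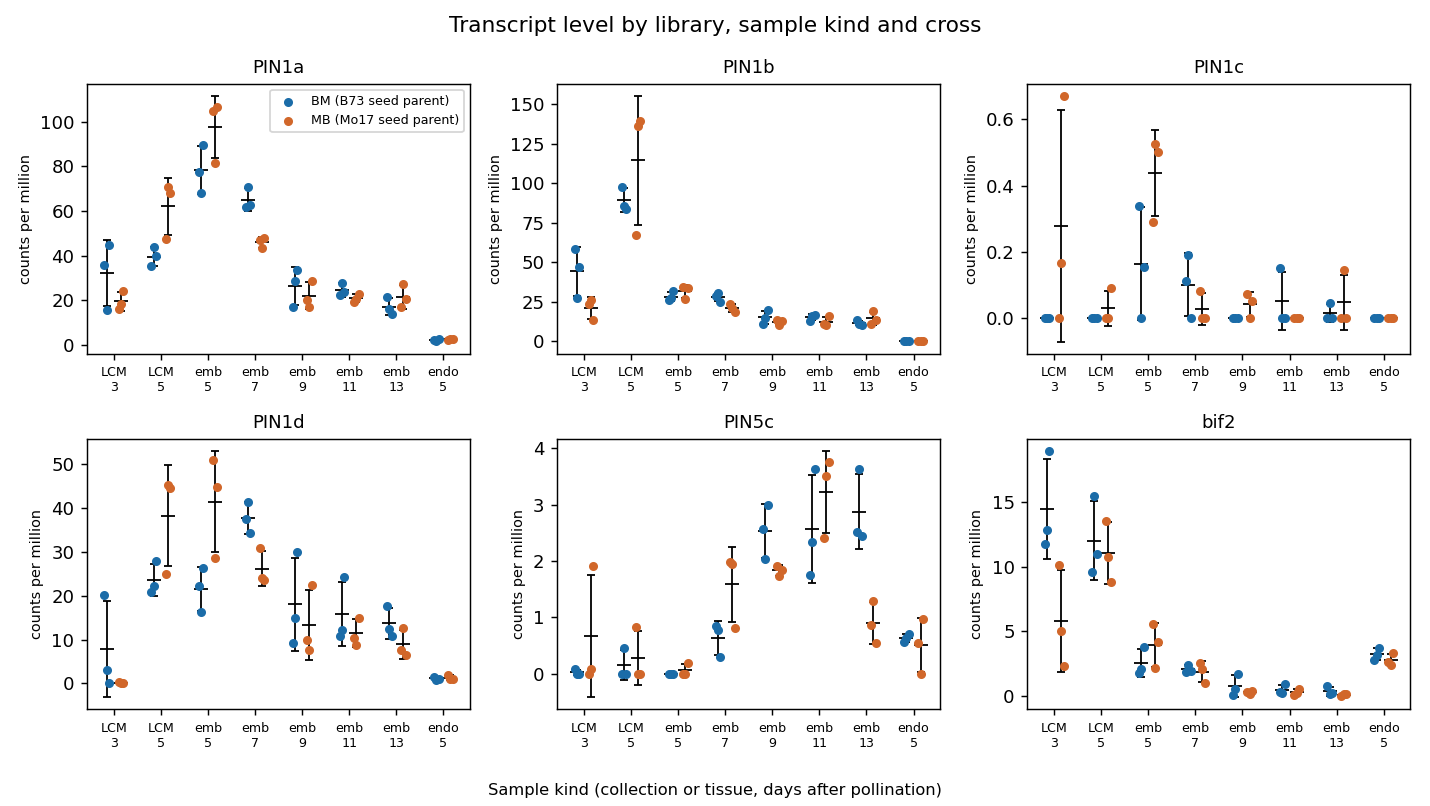
Each panel plots the CPM of one gene (vertical axis, linear) in every library against the sample kind (horizontal axis, with age in days after pollination; emb, manual embryo; endo, endosperm), with BM libraries in blue, MB libraries in orange and the mean ± SD of 3 libraries in black. PIN1a stands highest in manual embryos at 5 DAP, PIN1b in LCM embryos at 5 DAP, and PIN5c has its highest mean over both crosses at 11 DAP.

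The age series of manual embryos followed these genes while the embryo forms its shoot and root meristems. Between 5 and 7 DAP, PIN1a fell and PIN5c rose, which made 2 of the 5 members tested, beside 40.6% of all 22972 genes called. PIN1a was at 77.4, 68.2 and 89.6 CPM in the BM libraries and 105, 81.7 and 106 CPM in the MB libraries at 5 DAP. At 7 DAP it was at 61.7, 70.9 and 62.6 CPM in BM and 46.9, 43.2 and 47.9 CPM in MB. The groups overlapped in BM, where the highest 7 DAP library lay above the lowest 5 DAP library, and not in MB. The log2 fold change was -0.63 ± 0.13 (SE; edgeR quasi-likelihood test with Benjamini-Hochberg adjustment over all genes, adjusted p = 0.0022). PIN5c had 3 reads in the 6 libraries of 5 DAP, all in MB replicate 3, and 98 reads at 7 DAP, present in all 6 libraries. This is a ratio of 29.6 per library total with a counting interval of 9.84 to 146 (95%, counting error only), and the edgeR adjusted p was 9.1e-05. In BM, where 5 DAP had no read, the level at 7 DAP was at least 8.67-fold higher (floor of 3 counts over the group). PIN1b (-0.25 ± 0.11, adjusted p = 0.087), PIN1d (0.12 ± 0.27) and bif2 (-0.64 ± 0.31, adjusted p = 0.11) did not pass, and without BM replicate 2 of 7 DAP the value of PIN1b was -0.30 with an adjusted p of 0.047. The summed endosperm markers were at 1733 to 10177 CPM (median 5388) at 5 DAP and 282 to 1968 CPM (median 1061) at 7 DAP. In BM the sum was at 8977 to 10177 CPM and then 922 to 1691 CPM. In MB it was at 1733 to 1800 CPM and then 300, 282 and 1968 CPM. Within the list gz27, o2 and pbf1 rose by mean CPM, from 1.98 to 28.8, 0.0125 to 0.460 and 0.187 to 0.788. The part of these markers in the member values was not tested.

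Between 7 and 9 DAP all 5 members tested changed, PIN1a, PIN1b, PIN1d and bif2 downwards and PIN5c upwards. Over all 22316 genes 39.1% were called, and 20.0% were called lower. The summed embryo markers were at 122 to 159 CPM at 7 DAP and 43.8 to 99.4 CPM at 9 DAP, without overlap, and their part in these changes was not tested. PIN1a was at 43.2 to 70.9 CPM (median 54.8) at 7 DAP and at 16.8 to 33.5 CPM (median 24.5) at 9 DAP, with no overlap, a change of -1.15 ± 0.17 on the log2 scale (edgeR adjusted p = 0.00018). PIN1b was at 28.6, 30.5 and 25.2 CPM in BM and 23.4, 21.0 and 18.8 CPM in MB at 7 DAP, and at 11.1, 14.7 and 19.7 CPM and 13.6, 10.2 and 12.9 CPM at 9 DAP. The ranges of PIN1b met only between MB replicate 3 of 7 DAP and BM replicate 3 of 9 DAP, and its change was -0.81 ± 0.13 (adjusted p = 0.00017). PIN1d was at 37.6, 41.5 and 34.2 CPM in BM and 30.8, 24.1 and 23.7 CPM in MB at 7 DAP, and at 9.22, 15.0 and 29.9 CPM and 9.87, 7.54 and 22.6 CPM at 9 DAP. In both crosses replicate 3 of 9 DAP was well above the other two, and it also had the highest summed level of the 3 embryo markers in its group, 99.4 CPM in BM and 79.4 CPM in MB against 43.8 to 69.0 CPM in the other 4 libraries. The part of this in the PIN1d values was not tested. The change of PIN1d was -0.98 ± 0.32 (adjusted p = 0.033). It did not pass without a filter on low counts (adjusted p = 0.059), in 1 fit over all 48 libraries (adjusted p = 0.10) or in 9 of the 12 fits that left out 1 library (adjusted p 0.051 to 0.070), which were those without any BM library of 7 DAP, MB replicates 1 and 2 of 7 DAP and replicates 1 and 2 of either cross at 9 DAP.

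In the same interval bif2 was at 1.86, 2.43 and 1.95 CPM in BM and 2.56, 2.08 and 0.992 CPM in MB at 7 DAP, and at 0.0640, 0.550 and 1.69 CPM and 0.295, 0.151 and 0.422 CPM at 9 DAP. One 9 DAP library, BM replicate 3, lay inside the 7 DAP range, and the change was -1.91 ± 0.50 (edgeR adjusted p = 0.0069), or -2.66 without that library. The carrier PIN5c was at 0.845, 0.766 and 0.289 CPM in BM and 1.98, 1.95 and 0.817 CPM in MB at 7 DAP. It reached 2.56, 2.04 and 2.99 CPM in BM and 1.92, 1.74 and 1.85 CPM in MB at 9 DAP, so every BM library of 9 DAP lay above all those of 7 DAP, and the MB libraries overlapped. Its change was 1.08 ± 0.36 (adjusted p = 0.026), which missed the threshold in 1 fit over all 48 libraries (adjusted p = 0.24). It also missed it without any BM library of 7 DAP, MB replicate 3 of 7 DAP or BM replicate 3 of 9 DAP (adjusted p 0.051 to 0.067).

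From 9 to 11 DAP and from 11 to 13 DAP no member passed the test. At 11 against 9 DAP edgeR called 0 of the 4 members tested (0 at an unadjusted p under 0.05, 0 with DESeq2), beside 26.0% of all genes. At 13 against 11 DAP it called 0 of 4 (0 at an unadjusted p under 0.05, 0 with DESeq2), beside 6.40% of all genes. The largest of these 8 log2 fold changes were those of PIN5c, 0.40 ± 0.24 and then -0.68 ± 0.36, and the others lay between -0.24 and 0.01. The kinase bif2, with 36 reads over the 6 libraries of 11 DAP and 24 over those of 13 DAP, was below the filter in both.

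Over the whole manual series, 13 against 5 DAP, all 5 members tested differed, beside 63.3% of all genes called and 33.0% called lower. PIN1a fell from 68.2 to 106 CPM (median 85.6) to 14.0 to 27.1 CPM (median 18.7), and its log2 fold change of -2.05 ± 0.13 had an edgeR adjusted p of 9.9e-09. PIN1b fell from 26.2 to 34.7 CPM (median 29.5) to 10.7 to 19.1 CPM (median 12.3), by -1.06 ± 0.13 (adjusted p = 6.5e-06). PIN1d, from 16.2 to 50.9 CPM (median 27.5) to 6.49 to 17.8 CPM (median 11.6), overlapped at the margin and changed by -1.29 ± 0.30 (adjusted p = 0.0026). The kinase bif2 went from 1.76 to 5.56 CPM to 0 to 0.751 CPM, without overlap, by -3.53 ± 0.54 (adjusted p = 4.5e-05), or -4.36 without BM replicate 1 of 13 DAP. PIN5c rose from 3 reads to 193 reads over 6 libraries, a ratio of 57.6 with a counting interval of 19.4 to 282 (edgeR adjusted p = 1.1e-05). In MB, which held all 3 reads of 5 DAP in 1 library, the ratio was 13.1 (4.14 to 66.4), and in BM the level was at least 39.2-fold higher. The 3 embryo markers also stood lower at 13 DAP, at a summed 16.2 to 49.6 CPM against 47.5 to 187 CPM at 5 DAP. The sum of the 9 endosperm markers was lower too, at 37.8 to 1206 CPM against 1733 to 10177 CPM. Within that list gz27, o2 and pbf1 went the other way by mean CPM, from 1.98 to 287, 0.0125 to 5.29 and 0.187 to 6.38. The part of either list in these changes was not tested.

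**Figure D2:**
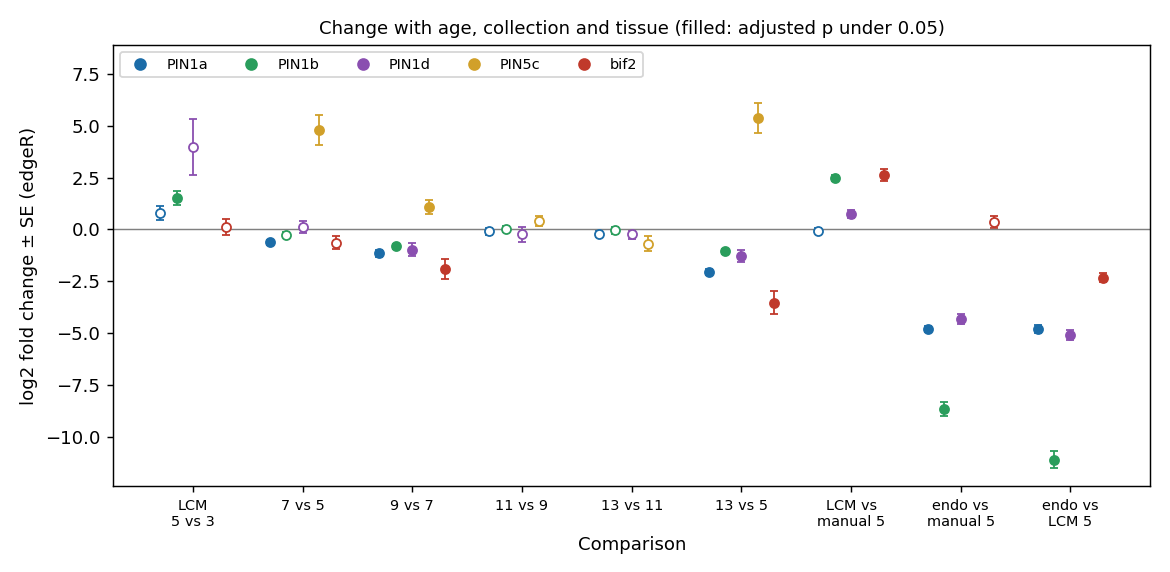
Points give the log2 fold change (vertical axis) of each gene in the 9 comparisons of age, collection and tissue named on the horizontal axis. They are filled where the edgeR adjusted p was under 0.05 and open where it was not. Bars are 1 SE, taken as the absolute log2 fold change over the square root of the edgeR F statistic, and do not replace the counting intervals. PIN1a, PIN1b, PIN1d and bif2 lie below 0 and PIN5c above 0 at 9 against 7 DAP, and no point is filled at 11 against 9 or 13 against 11 DAP, while the fitted values of PIN1b in endosperm and of PIN5c against 5 DAP rest on 3 reads in the lower group.

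In embryos isolated by laser, PIN1b rose between 3 and 5 DAP and was the 1 member called of 4 tested, beside 9.88% of all 20168 genes. It was at 58.5, 27.3 and 46.8 CPM in BM and 23.6, 26.3 and 13.4 CPM in MB at 3 DAP, and at 97.9, 85.6 and 84.0 CPM in BM and 67.3, 136 and 140 CPM in MB at 5 DAP. The ages did not overlap, and the log2 fold change was 1.52 ± 0.32 (edgeR adjusted p = 0.0090), or 1.62 with an adjusted p of 0.012 without both libraries that stood apart. PIN1a was at 35.6, 15.8 and 44.7 CPM in BM and 16.1, 18.4 and 24.3 CPM in MB at 3 DAP and at 35.2 to 70.8 CPM (median 45.6) at 5 DAP. It overlapped between the ages in BM and gave 0.79 ± 0.32 (adjusted p = 0.13). Without both libraries that stood apart its value was 0.94 with an adjusted p of 0.038, and without BM replicate 3 alone it was 1.03 with an adjusted p of 0.029. In FPKM (limma, 0.98, adjusted p = 0.036) and in 1 fit over all 48 libraries (0.82, adjusted p = 0.00062) PIN1a was called too. The fit over all 48 libraries called 10114 genes between these ages, against 1993 in the fit of these libraries alone. Between these ages fie1 went from 38.2 to 99.7 CPM to 0.858 to 5.45 CPM and ebe2 from 30.4 to 181 CPM to 5.06 to 28.2 CPM, while the mean of esr1 went from 932 to 4467 CPM, and the part of these endosperm markers was not tested.

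PIN1d was uneven among the LCM libraries of 3 DAP. Its counts there were 258, 37 and 0 in the BM libraries and 3, 1 and 0 in the MB libraries, or 20.3, 3.07 and 0 CPM and 0.235, 0.0828 and 0 CPM. At 5 DAP it was at 20.8, 22.3 and 27.8 CPM in BM and 24.9, 45.3 and 44.7 CPM in MB. The BM library with 258 reads came close to the lowest 5 DAP library, and the other 5 were far below. The fitted change of 3.97 ± 1.34 did not pass (edgeR adjusted p = 0.078), and without BM replicate 1 it was 5.58 with an adjusted p of 0.0040. Without both libraries that stood apart it was 2.88 with an adjusted p of 0.21, and in FPKM it was 3.07 with an adjusted p of 0.0014 (limma), and in 1 fit over all 48 libraries 4.80 with an adjusted p of 8.9e-08. For bif2, at 11.7, 12.8 and 18.9 CPM in BM and 10.1, 5.05 and 2.30 CPM in MB at 3 DAP and at 8.77 to 15.4 CPM at 5 DAP, the difference was 0.12 ± 0.40 (adjusted p = 0.88), or 0.62 with an adjusted p of 0.28 without both libraries that stood apart. PIN5c had 22 reads over the 6 libraries of 3 DAP, most of them in MB replicate 3, and 14 at 5 DAP, and was not tested.

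At 5 DAP embryos were collected in both ways, and PIN1b, PIN1d and bif2 were higher in LCM than in manual embryos while PIN1a was not called. These were 3 of 4 members tested, beside 76.4% of all genes called and 35.4% called higher. PIN1b was at 67.3 to 140 CPM (median 91.8) in LCM embryos, and at 26.2, 27.2 and 31.8 CPM in BM and 34.7, 27.1 and 33.6 CPM in MB manual embryos. The collections did not overlap, and the log2 fold change was 2.49 ± 0.15 (edgeR adjusted p = 3e-10), a 5.63-fold difference. PIN1d gave 0.75 ± 0.18 (adjusted p = 0.0013) although its CPM overlapped, with 20.8 to 45.3 in LCM and 16.2 to 50.9 in manual embryos. PIN1a was lower in CPM, at 35.2 to 70.8 against 68.2 to 106, and its fitted change was -0.06 ± 0.13 (adjusted p = 0.65). These values depend on the scaling between libraries. With library totals in place of TMM factors, a setting chosen after seeing the data, the median of all genes moved from -0.15 to -0.90, and the calls from 8028 higher and 9293 lower to 4719 and 12975. PIN1a was then called lower (-0.82, adjusted p = 4.8e-05; in FPKM -0.76, adjusted p = 0.00015), PIN1d was at 0.01 (adjusted p = 0.97; in FPKM 0.10, adjusted p = 0.65) and PIN1b was at 1.75 (adjusted p = 5.6e-08), a 3.36-fold difference. In 1 fit over all 48 libraries PIN1d was at 0.78 (adjusted p = 0.098). LCM libraries also held more lec1, 514 to 1685 CPM against 40.0 to 87.9 CPM, and less kn1 by mean, 2.08 CPM (0 to 11.1) against 39.1 CPM (0.621 to 83.8), and the 9 endosperm markers summed to 2506 to 24510 CPM in LCM and 1733 to 10177 CPM in manual embryos, mostly esr1, esr2 and esr3, genes of the endosperm region around the embryo. The part of these in the member values was not tested.

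A ratio of PIN1b to PIN1a within a library does not depend on the scaling between libraries. In FPKM it was 1.35 to 2.65 (median 1.91) in LCM embryos at 5 DAP and 0.303 to 0.420 (median 0.323) in manual embryos of the same age. PIN1b was thus the higher of the pair in all 6 LCM libraries and in 0 of 6 manual libraries. The mean log2 ratio differed by 2.51 ± 0.14 (SE, n = 6 per collection), by 2.58 in BM and 2.44 in MB. An exact two-sided permutation test gave p = 0.0022, the smallest it allows. It exchanged libraries without regard to cross, as did the other permutation tests below. In LCM embryos at 3 DAP the ratio was 0.525 to 1.65 (median 1.38), with PIN1b higher in 4 of 6 libraries, PIN1a higher in MB replicate 3, and BM replicate 3 at 0.998. The ratio was higher at 5 than at 3 DAP by 0.71 ± 0.28 (exact permutation test, n = 6 per age, p = 0.015). Without both libraries that stood apart the difference was 0.71 ± 0.41 and no longer passed (exact permutation test, n = 6 and 4, p = 0.057). Along the manual series the median ratio was 0.323 at 5 DAP, 0.436 at 7, 0.579 at 9, 0.567 at 11 and 0.657 at 13 DAP, and PIN1a remained the higher of the pair in all 30 libraries. The 13 DAP libraries, at 0.621 to 0.753, did not overlap those of 5 DAP, and the log2 ratio differed by 0.99 ± 0.08 (exact permutation test, n = 6 per age, p = 0.0022). With Benjamini-Hochberg adjustment over these 3 tests, which were chosen after seeing the data, the p-values were 0.0032, 0.015 and 0.0032.

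**Figure D3:**
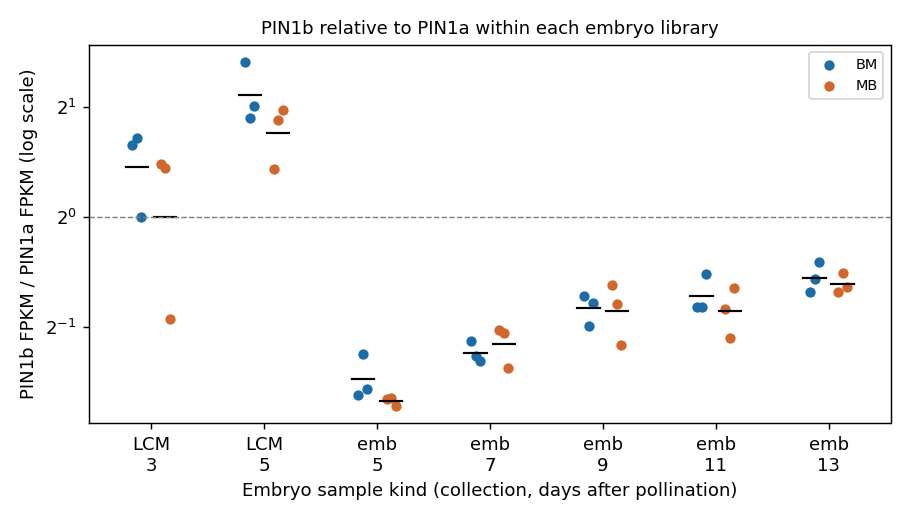
The FPKM of PIN1b divided by that of PIN1a in the same library (vertical axis, log scale with base 2) is plotted for the 7 embryo sample kinds (horizontal axis, days after pollination), with BM in blue, MB in orange, the mean of the log ratios of 3 libraries as a black line and equality as a dashed line. All 6 LCM libraries at 5 DAP lie above the dashed line, and all 30 manual libraries lie below it.

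The endosperm comparison asked which of these genes belong to the embryo at 5 DAP. PIN1a, PIN1b and PIN1d were lower in endosperm than in either kind of embryo, and PIN1b was almost without reads there. Against manual embryos 3 of 4 members were called, all lower, beside 79.9% of all genes called and 42.2% called lower. Against LCM embryos 4 of 4 were called, all lower, beside 79.4% called and 39.0% called lower. PIN1b had 0, 0 and 3 reads in the BM and 0 in each of the MB endosperm libraries, against 2501 reads over the 6 manual and 6824 over the 6 LCM libraries. Per library total the ratio of manual embryo to endosperm was 644 (counting interval 220 to 3124) and that of LCM embryo to endosperm 2179 (745 to 10569). In MB, where no endosperm read was found, the embryo was at least 366-fold higher by hand and at least 1320-fold higher by laser (floor of 3 counts over the group).

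PIN1a in endosperm was at 1.96, 1.55 and 2.79 CPM in BM and 2.21, 2.58 and 2.76 CPM in MB. None of these came near the lowest embryo library of the same age, at 35.2 CPM. Its log2 fold change was -4.80 ± 0.13 against manual embryos (edgeR adjusted p = 4.2e-13) and -4.80 ± 0.18 against LCM embryos (adjusted p = 1.2e-11). PIN1d was at 1.54, 0.731 and 1.05 CPM in BM and 1.88, 0.921 and 0.966 CPM in MB endosperm. It was lower than in manual embryos by -4.32 ± 0.24 (adjusted p = 4.1e-10) and lower than in LCM embryos by -5.09 ± 0.23 (adjusted p = 7.2e-11). Of the 3 embryo markers, lec1 was at or under 0.523 CPM and kn1 at or under 0.221 CPM in these libraries. The third, wox2a, was at 25.3 to 41.8 CPM there, against 6.65 to 21.0 CPM in manual and 21.5 to 41.8 CPM in LCM embryos at 5 DAP. The summed ovule and seed coat markers were at 0.611 to 1.77 CPM in endosperm. They were at 14.8 to 27.3 CPM in manual and 3.43 to 13.1 CPM in LCM embryos at 5 DAP. The part of these markers in the member values was not tested. With library totals as the scale, chosen after seeing the data, PIN1a and PIN1d stayed lower (-5.23 and -4.76 against manual embryos), while the median of all genes moved from -0.08 to -0.51 and the calls from 8739 higher and 9760 lower to 6274 and 12680. PIN5c had 38 reads over the 6 endosperm libraries (0.569 ± 0.317 CPM), and was not tested there.

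For the kinase gene bif2 the comparison with endosperm depended on the collection of the embryos and on the unit. In CPM it was at 2.81, 3.20 and 3.75 in BM and 2.65, 2.39 and 3.31 in MB endosperm. In manual embryos at 5 DAP it was at 1.76, 2.08 and 3.81 CPM in BM and 5.56, 2.17 and 4.19 CPM in MB, so the tissues overlapped, and the log2 fold change of 0.34 ± 0.28 was not called (edgeR adjusted p = 0.27). In LCM embryos it was at 9.56, 15.4 and 11.0 CPM in BM and 13.5, 10.7 and 8.77 CPM in MB, above every endosperm and manual library. The change was -2.32 ± 0.23 for endosperm against LCM (adjusted p = 2.2e-07) and 2.61 ± 0.30 for LCM against manual embryos (adjusted p = 9.4e-07), a 6.11-fold difference that came to 3.57-fold with library totals (1.84, adjusted p = 1.7e-05).

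In FPKM no difference of bif2 was called between the same libraries. Its mean was 2.03 ± 0.576 in LCM embryos, 1.88 ± 0.945 in manual embryos and 1.97 ± 0.281 in endosperm at 5 DAP (SD, n = 6 each). On log2(FPKM + 1), limma gave 0.12 for LCM against manual embryos (adjusted p = 0.58) and -0.01 for endosperm against LCM embryos (adjusted p = 0.94). The quotient of FPKM and CPM, which is fixed for a gene when both come from the same reads and gene length, had a median of 0.184 (0.120 to 0.234) for bif2 in LCM embryos at 5 DAP. It was 0.586 (0.369 to 0.699) in manual embryos and 0.662 in endosperm. The mean quotient in LCM embryos came to 0.312 of the mean in manual embryos. PIN1a, PIN1b and PIN1d had quotients of 1.02, 0.999 and 1.07 between the collections, and over 15191 genes with at least 10 counts in all 12 libraries the median was 1.02, with 2.85% of genes at or under bif2. The higher bif2 level in LCM embryos was thus found in the counts and not in FPKM, and why the 2 units part was not tested.

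**Figure D4:**
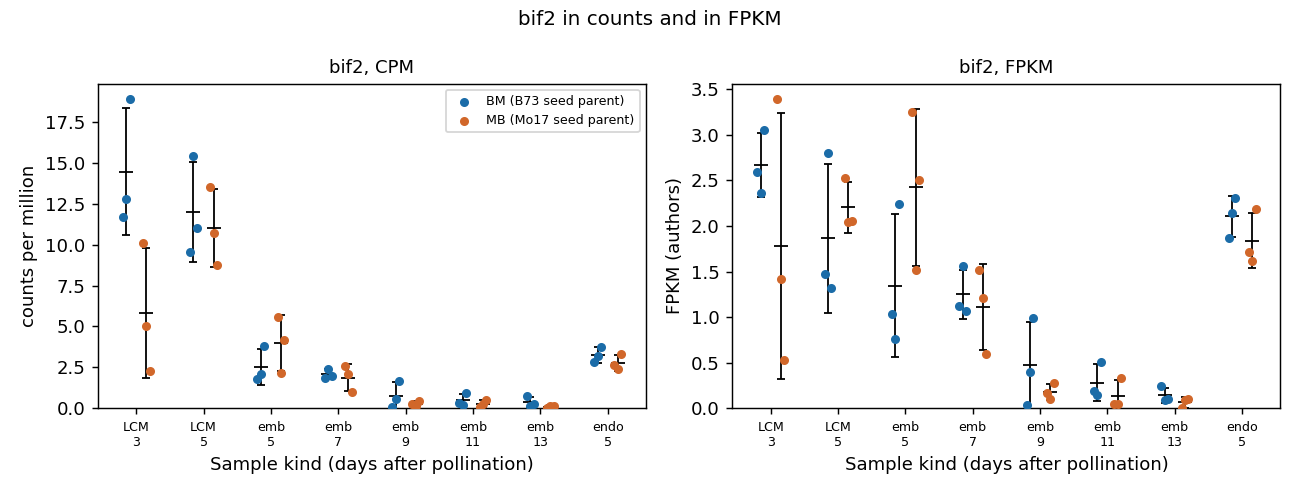
The level of bif2 in every library is plotted against sample kind (horizontal axis, days after pollination) in CPM (left, linear axis) and in the authors' FPKM (right, linear axis), with BM in blue, MB in orange and mean ± SD of 3 libraries in black. The LCM libraries at 5 DAP lie at 8.77 to 15.4 CPM, above all endosperm libraries, while in FPKM they overlap the endosperm and the manual embryos of 5 DAP.

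The reciprocal crosses asked whether the seed parent matters for these genes, since MB and BM embryos carry the same parental genomes, while in endosperm the seed parent gives the larger share. A difference was called for PIN1d at 5 DAP, for PIN1a, PIN1b and PIN1d at 7 DAP and for PIN5c at 13 DAP, and for no member in LCM embryos, in endosperm or at 9 and 11 DAP. In manual embryos at 5 DAP 1 of 4 members was called, beside 27.2% of all genes. PIN1d was at 22.1, 16.2 and 26.3 CPM in BM and 50.9, 28.7 and 44.8 CPM in MB, without overlap. MB over BM was 0.86 ± 0.22 (edgeR adjusted p = 0.018). The call was lost without a filter on low counts (adjusted p = 0.095), in 1 fit over all libraries (adjusted p = 0.52) and without BM replicate 1, BM replicate 2 or MB replicate 3 (adjusted p 0.054 to 0.14). PIN1a was at 0.24 ± 0.11 (adjusted p = 0.14), or 0.35 with an adjusted p of 0.026 without MB replicate 2. The MB libraries of this age also held more of the embryo markers, a summed 147 to 187 CPM against 47.5 to 59.7 CPM in BM, and less of the endosperm markers, 1733 to 1800 CPM against 8977 to 10177 CPM, and their part in the PIN1d difference was not tested.

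At 7 DAP the direction was the other way, and all 3 members called were lower in MB, beside 8.32% of all genes called and 4.59% called lower. PIN1a was at 61.7, 70.9 and 62.6 CPM in BM and 46.9, 43.2 and 47.9 CPM in MB, and MB over BM was -0.56 ± 0.09 (edgeR adjusted p = 0.0064). PIN1b, at 25.2 to 30.5 CPM in BM and 18.8 to 23.4 CPM in MB, gave -0.47 ± 0.12 (adjusted p = 0.042), and PIN1d, at 34.2 to 41.5 CPM against 23.7 to 30.8 CPM, gave -0.59 ± 0.13 (adjusted p = 0.022). In all 3 genes the crosses did not overlap. Embryo markers did overlap at this age, with 136 to 159 CPM in BM and 122 to 149 CPM in MB. The summed endosperm markers were at 922 to 1691 CPM in BM and at 300, 282 and 1968 CPM in MB replicates 1, 2 and 3. The summed ovule and seed coat markers were at or above 16.9 CPM in BM and at 6.94, 10.8 and 18.1 CPM in MB. The part of these lists in the member differences was not tested. The call of PIN1b was lost in FPKM (adjusted p = 0.098), with library totals (adjusted p = 0.056) and without any 1 library but BM replicate 3 (adjusted p 0.051 to 0.16). That of PIN1d was lost in FPKM (adjusted p = 0.076) and without BM replicate 1, BM replicate 2 or MB replicate 2 (adjusted p 0.080 to 0.11), and in 1 fit over all libraries all 3 calls were lost (adjusted p 0.51 to 0.97). Over all genes, library totals turned the calls from 804 higher and 990 lower to 1224 and 762. PIN5c was at 0.289 to 0.845 CPM in BM and 0.817 to 1.98 CPM in MB at 7 DAP, 1.21 ± 0.51 (adjusted p = 0.17), or 1.55 with an adjusted p of 0.034 without MB replicate 3.

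At 13 DAP the 1 member called of 4 was PIN5c, beside 26.5% of all genes. It was at 2.52, 3.64 and 2.45 CPM in BM and 0.864, 1.30 and 0.541 CPM in MB, without overlap, and MB over BM was -1.59 ± 0.37 (edgeR adjusted p = 0.0082). Without BM replicate 2 it was -1.36 with an adjusted p of 0.061, and in 1 fit over all libraries the adjusted p was 0.42. The endosperm markers summed to 634 to 1206 CPM in BM and 37.8 to 144 CPM in MB at this age, the embryo markers to 35.6 to 49.6 and 16.2 to 19.3 CPM, and their part in the PIN5c difference was not tested. PIN1b (0.39 ± 0.20) was called without MB replicate 1 (0.55, adjusted p = 0.036), and PIN1d (-0.54 ± 0.29) without MB replicate 2 (-0.88, adjusted p = 0.014).

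In the other kinds edgeR called 0 members, and DESeq2 called 0 as well. In LCM embryos at 3 DAP 3 were tested and 1, PIN1b, had an unadjusted p under 0.05 (-1.20 ± 0.46, adjusted p = 0.59, or -1.32 with an adjusted p of 0.28 without both libraries that stood apart), beside 0.0161% of all genes called. In 1 fit over all 48 libraries PIN1a (-0.81, adjusted p = 0.021) and PIN1b (-1.14, adjusted p = 0.0024) were called there. That fit called 7583 genes for this cross difference, against 3 in the fit of these libraries alone. In LCM embryos at 5 DAP 4 were tested and 0 had an unadjusted p under 0.05, beside 6.96% of all genes, and the values ran from -0.36 for bif2 to 0.44 for PIN1d. At 9 DAP 0 of 4 had an unadjusted p under 0.05, beside 0.0290% of all genes called, and at 11 DAP 0 of 4, beside 14.3%. In endosperm 0 of 3 had one, beside 21.3%, with values of 0.25 for PIN1a, 0.18 for PIN1d and -0.23 for bif2.

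**Figure D5:**
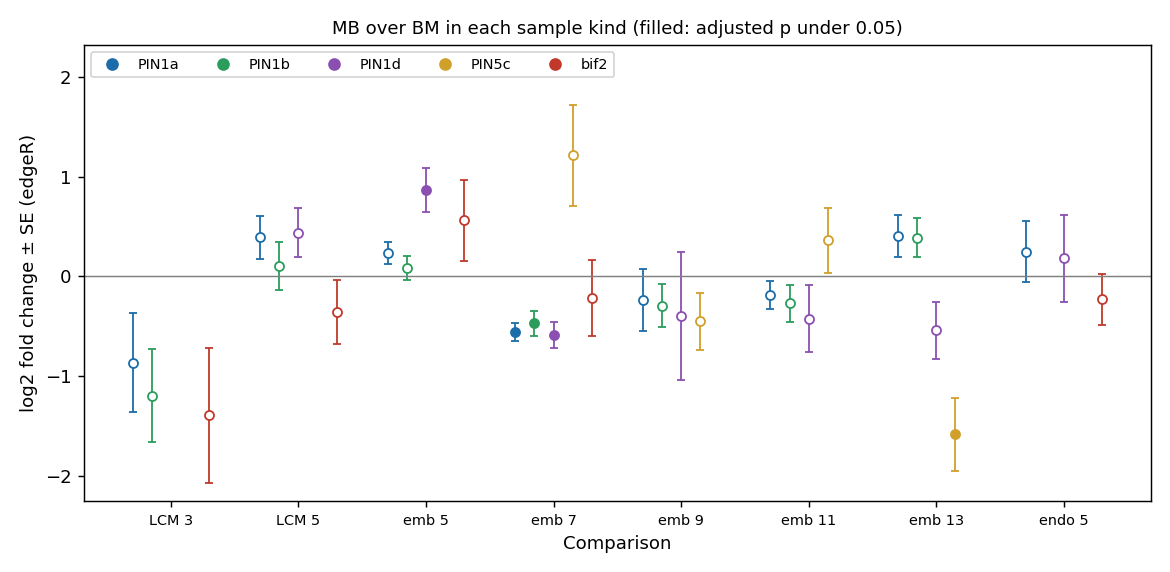
Points give the log2 fold change of MB over BM (vertical axis) for each gene in the 8 sample kinds on the horizontal axis. Bars are 1 SE, derived from the edgeR F statistic. Points are filled where the edgeR adjusted p was under 0.05 and left out where the gene was not tested. PIN1d is filled above 0 at 5 DAP, PIN1a, PIN1b and PIN1d are filled below 0 at 7 DAP, and PIN5c is filled below 0 at 13 DAP.

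Whether the cross difference itself varied with age in manual embryos was tested with the 4 cross-by-age terms together over 30 libraries. PIN5c was the 1 member called of 5 (edgeR adjusted p = 0.0057), beside 36.3% of all genes. Its mean in MB and BM was 1.58 and 0.633 CPM at 7 DAP, 1.83 and 2.53 CPM at 9 DAP, 3.22 and 2.57 CPM at 11 DAP and 0.900 and 2.87 CPM at 13 DAP. The cross with the higher mean thus alternated from age to age, of which 13 DAP alone passed its own test, and both crosses had a mean at 5 DAP of 0.0626 CPM or less. For PIN1a (adjusted p = 0.074), PIN1b (adjusted p = 0.069), PIN1d (adjusted p = 0.20) and bif2 (adjusted p = 0.34) the difference was not shown to vary with age, the opposite signs of PIN1d at 5 and 7 DAP included. DESeq2 called PIN1a (adjusted p = 0.013) and PIN1b (adjusted p = 0.033) as well. So did edgeR without MB replicate 2 of 5 DAP, BM replicate 1 of 9 DAP or MB replicate 1 of 13 DAP, for PIN1a also without MB replicate 3 of 9 DAP or BM replicate 1 of 13 DAP and for PIN1b also without MB replicate 3 of 11 DAP (adjusted p 0.012 to 0.048).

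Of the other auxin transport genes, PIN8 changed between 7 and 9 DAP and PIN10a between 9 and 11 DAP. Of 37 further auxin genes with a symbol in the table of names, 4 act in transport, PIN8, PIN9, PIN10a and br2, an ABC transporter known from auxin movement in maize stems, and the rest in synthesis, signalling and response. PIN9 had a mean of 0.0926 CPM or less in every kind. PIN8 was highest at 7 DAP, with 4.25 ± 1.60 CPM (SD, n = 6), and fell by 9 DAP to 1.32 ± 0.615 CPM (-1.60 ± 0.36, edgeR adjusted p = 0.0026), and no read of it was found in endosperm. PIN10a rose between 9 and 11 DAP, with 1.68 ± 0.198 and 4.95 ± 1.83 CPM (log2 fold change 1.55 ± 0.26, adjusted p = 0.0012), when PIN1a, PIN1b and PIN1d were not called. The transporter br2 was higher in LCM than in manual embryos of 5 DAP (1.71 ± 0.25, adjusted p = 1.1e-05), with 17.1 ± 5.34 against 8.78 ± 3.29 CPM, and PIN8 was lower (-2.08 ± 0.85, adjusted p = 0.035).

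Among the 37 auxin genes the calls went both ways at each step but the last. At 7 against 5 DAP 5 of 29 tested rose and 7 fell, beside 4504 up and 4829 down of all 22972 genes (40.6% called). At 9 against 7 DAP 12 of 28 rose and 6 fell, beside 4259 up and 4463 down of 22316 (39.1%). At 11 against 9 DAP 6 of 27 rose and 2 fell, beside 2845 up and 2877 down of 21990 (26.0%). At 13 against 11 DAP 1 of 27 rose, beside 782 up and 612 down of 21774 (6.40%). This was ARF28 (0.31 ± 0.08, edgeR adjusted p = 0.044). Their median log2 fold change at 9 against 7 DAP was 0.26, where that of the 5 members was -0.98 and that of all genes 0.00. BIF1, an auxin signalling gene known from the maize inflorescence, fell at 9 against 7 DAP as its namesake bif2 did (6.93 ± 5.70 to 1.04 ± 0.301 CPM, -2.56 ± 0.46, adjusted p = 0.00081). In LCM embryos 4 of 25 rose and 5 fell between 3 and 5 DAP, beside 574 up and 1419 down of all 20168 genes (9.88%). Without both libraries that stood apart 6 rose and 5 fell, beside 1259 up and 1765 down over all genes (14.7%). The auxin response factor ARF2 was among those that rose, as PIN1b did (79.9 ± 28.2 to 261 ± 74.2 CPM, 1.51 ± 0.23, adjusted p = 0.0018, or 1.37 with an adjusted p of 0.0026 without both libraries). Between LCM and manual embryos of 5 DAP 9 of 27 were higher and 8 lower. Over all 22660 genes 8028 were called higher and 9293 lower (76.4% called). ARF5, another auxin response factor, was at 34.0 to 66.1 against 6.36 to 22.6 CPM (log2 fold change 2.65 ± 0.28, adjusted p = 5.8e-07). In endosperm 18 of 28 were lower and 7 higher than in manual embryos. Over all 23153 genes 79.9% were called, 9760 of them lower (42.2% of all) and 8739 higher. The 3 transport genes tested there were all lower, and of the 5 synthesis genes 4 were higher, with the flavin monooxygenase gene Yucca6 at 156 ± 14.1 CPM against 3.25 ± 1.84 CPM (6.05 ± 0.33, adjusted p = 8.6e-09).

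The genes most like each member were sought over the 16 group means of log2(CPM + 1), among 17436 gene models with a group mean of at least 10 CPM. The values are a description without a test, since the means share libraries and depth. PIN1a was matched by GRMZM2G099097, named CER1 in the table of names (Pearson r = 0.973), GRMZM2G088132 (0.970) and GRMZM2G168651, named HRGP (0.967). PIN1b had GRMZM2G055999 (0.978), GRMZM2G487328 (0.976) and GRMZM5G829103 (0.971), each highest in MB LCM embryos at 5 DAP. For PIN1d the closest were GRMZM2G152143 (0.965), GRMZM2G144109 and GRMZM2G123308 (0.950 each). PIN5c came nearest to GRMZM2G097706, an aldehyde dehydrogenase gene named aldh5 and rf2d (0.917), GRMZM2G148060 (0.915) and GRMZM2G050937 (0.912). The pattern of bif2 was closest to GRMZM2G067156 (0.983), GRMZM2G020255 (0.975) and GRMZM2G348452, named CKX10 (0.975), and PIN1c, with its few reads, reached 0.874 with GRMZM2G061704, 0.866 with GRMZM2G126749 and 0.847 with GRMZM2G042933. Of each member's 3 closest genes, 0 or 1 remained with Spearman's rho or over the 12 groups not collected by laser. Among the members themselves r was 0.889 for PIN1a and PIN1b, 0.805 for PIN1a and PIN1d, 0.666 for PIN1b and PIN1d, and -0.794 for bif2 and PIN5c.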

How the data were processed

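Whole-number counts per gene model and FPKM of the same 48 libraries were deposited by the authors, per the file headers. The submitters' processing notes name FastQC, TopHat, HTSeq and Cufflinks 2.2.1 without their roles. Genome build, annotation, strand setting and counting mode: not given in the sources used here. The table of gene names, for Zm-B73-REFERENCE-NAM-5.0, matched 18775 gene models (47.3%). The 6 gene models behind 3 ambiguous auxin symbols were left out.

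CPM is the count over the library total (7130090 to 21698127). R 4.3.3 and edgeR 4.0.16 tested the counts, with a filter on low counts (filterByExpr by group), TMM scaling, estimateDisp, a robust glmQLFit and a two-sided glmQLFTest. Calls are at an adjusted p (Benjamini-Hochberg, all genes tested) under 0.05. The SE beside an edgeR log2 fold change is its absolute value over the square root of the F statistic, since edgeR reports no SE. Of 18 comparisons, 9 of age, collection and tissue had 12 libraries each and an additive term for cross, 8 set MB against BM in 6 libraries, and 1 tested the cross-by-age terms in 30. All pairs of replicates differed by more than sampling noise. The code was tested on simulated counts. Intervals (95%) and floors (3 counts) cover counting error only, because reads can be copies of one molecule.

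All members are named, with the 3 genes most like each and, of the other auxin genes, some of those called with the largest change in a comparison. Members, lists and tests were chosen with earlier results of these data known. Alternatives were RLE factors, DESeq2 1.42.0, no filter, a block for the replicate number, a single model of the 48 libraries, limma 3.58.1 on log2(FPKM + 1) with a minimum mean FPKM of 1, each library left out, both LCM libraries that stood apart left out and, chosen after seeing the data, library totals without TMM. Sequences were not used here.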

Additional observations from a re-analysis of the deposited data

Results flagged for a closer look

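The difference of MB over BM in PIN5c varied with age in manual embryos, by the test of the 4 cross-by-age terms together (edgeR adjusted p = 0.0057). On the log2 scale it was 1.21 ± 0.51 for 7 DAP. For 9 and 11 DAP it was -0.45 ± 0.29 and 0.36 ± 0.33, and for 13 DAP -1.59 ± 0.37. In 1 fit over all 48 libraries the adjusted p was 0.53. At 7 DAP the summed endosperm markers were at 922 to 1691 CPM in BM and 282 to 1968 CPM in MB. At 13 DAP they were at 634 to 1206 CPM in BM and 37.8 to 144 CPM in MB. The summed embryo markers of 13 DAP were at 35.6 to 49.6 and 16.2 to 19.3 CPM. The part of either list in this was not tested.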

How the results depend on the processing

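Of 1325 alternative values of the members, 1226 kept direction and call, 44 lost the call, 28 gained it and 27 changed sign, none of the last in a called result. RLE factors changed 0 of 75. Members with few reads (PIN1c, bif2 after 7 DAP, PIN5c before it) limit what can be tested. The cause of each change below was not tested. The settings without the libraries that stood apart for the PIN1b to PIN1a ratio and the other auxin genes were chosen after seeing the data.

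Counts of called genes moved most in 1 fit over all 48 libraries, from 1993 to 10114 at LCM 5 against 3 DAP, 9333 to 5240 at 7 against 5, 8722 to 4731 at 9 against 7, 5722 to 2359 at 11 against 9 DAP and 8691 to 1214 for cross by age. For MB against BM they went from 3 to 7583 and 1289 to 3630 in LCM embryos of 3 and 5 DAP, 6005 to 1546 at 5, 1794 to 241 at 7, 3052 to 471 at 11 and 5430 to 789 at 13 DAP and 4200 to 822 in endosperm. DESeq2 gave 3454 at LCM 5 against 3 DAP, 3469 against 1394 at 13 against 11 DAP, and 233, 2321 and 128 against 3, 1289 and 6 for the crosses in LCM embryos of 3 and 5 DAP and at 9 DAP. Without a filter the crosses gave 31 (LCM 3 DAP) and 50 (9 DAP), and in FPKM 23, 1 and, at 7 DAP, 1070. Without both libraries that stood apart there were 3024 (LCM 5 against 3 DAP) and 1 (cross at LCM 3 DAP).

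Taken over all sample kinds, the replicate number did not pair samples (71 of 360 same-number pairs correlated over 0.1). An exception was replicate 3 at 9 DAP, where BM and MB correlated at 0.53. As a block the replicate number gave 210 calls at 13 against 11 DAP and 98 for the crosses at 9 DAP. For PIN1a across the crosses at 5 DAP it gave an edgeR adjusted p of 0.011 (0.24).

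Leaving out 1 library gave 1109 to 2297 calls at LCM 5 against 3 DAP and 106 to 3066 at 13 against 11 DAP. For the crosses it gave 0 to 2 and 239 to 1820 in LCM embryos, 419 to 3492 at 7, 0 to 27 at 9, 856 to 3871 at 11 and 3184 to 5232 at 13 DAP and 2436 to 4750 in endosperm.

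Signs changed for bif2 at LCM 5 against 3 DAP (-0.027 in FPKM), PIN1b at 11 against 9 DAP (-0.0052 without a filter), bif2 in endosperm against manual embryos (-0.086 with library totals) and bif2 across the crosses in LCM embryos of 5 DAP (0.19 in FPKM). With 1 library left out the values spanned -0.10 to 0.38 for bif2 at LCM 5 against 3 DAP, -0.045 to 0.26 for PIN1d at 7 against 5 DAP, and -0.19 to 0.036 (PIN1a), -0.082 to 0.12 (PIN1b) and -0.41 to 0.067 (PIN1d) at 11 against 9 DAP. They spanned -0.18 to 0.023 for PIN1b at 13 against 11 DAP. For the crosses they spanned -0.063 to 0.33 (PIN1b, LCM 5 DAP), -0.50 to 0.11 (bif2, 7 DAP), -1.06 to 0.18 and -0.66 to 0.025 (PIN1d, 9 and 11 DAP) and -0.17 to 0.44 (PIN1d, endosperm).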
